A study of Mus musculus with 12 samples.

Results

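The libraries compared here came from splenic B cells of Fcmr knockout (KO) mice and of wild-type (WT) mice after 1 h with anti-IgM. The comparison took the 3 KO and the 3 WT libraries of that time, 6 of the 12 libraries in the series, and covered all genes. The other 6 libraries were harvested at 6 h, again 3 per genotype. The labels describe the cells as naive B cells purified from spleen, and every culture, of either genotype, received an F(ab')2 fragment of anti-IgM at 10 µg/mL. The question the design poses is how the loss of Fcmr changes the transcripts of B cells whose antigen receptor has been triggered. No unstimulated culture is used here, so a level at 1 h joins what the cells held before stimulation with what the stimulus added. The KO allele, the age of the mice, the method of purification and whether each library came from a mouse of its own are not given in the sources used here. The labels call the replicates biological, and p-values cover only how these libraries vary, which may be partly technical. Single libraries are named by genotype and replicate number, as in WT 3.

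Fcmr encodes the Fc receptor for IgM, which in mice is found mainly on B cells and binds the constant part of the antibody. The F(ab')2 reagent lacks the Fc part and crosslinks the IgM of the B cell antigen receptor (BCR). Crosslinking activates the kinases LYN, SYK and BTK and the phospholipase PLCG2, and these open the calcium and NFAT, the RAS and ERK, and the NF-kB branches. Within the first hour the ERK branch drives immediate early genes such as Egr1, Fos and Jun, and it also drives phosphatases that limit the same branch.

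Levels are given as FPKM, fragments per kilobase of gene scaled to the library's total, as the authors deposited them. The 6 libraries of 1 h held 19260751 to 22417596 fragments in genes, and 20837 to 21225 genes in each were above 0. Of 55487 genes, 11841 averaged 1 FPKM or more across all 12 libraries and were tested with limma on log2(FPKM + 1). A fold change is KO over WT on that scale, and a gene was called at a Benjamini-Hochberg adjusted p under 0.05. This scale understates the change of genes with low levels. Over the 6 libraries of 1 h, the first principal component carried 40.3% of the variance. It placed WT 3 at -8.67, among the KO libraries at -2.17, -17.8 and -9.20, while WT 1 and WT 2 were at 21.7 and 16.1. The summed level of 16 neutrophil markers was 952 and 501 FPKM in WT 1 and WT 2 and 67.7 FPKM in WT 3, against 31.6 to 91.9 FPKM in the KO libraries. Counts are therefore also given without WT 3, which leaves in WT only WT 1 and WT 2, the libraries high in these markers. B cell markers were high in all 6 libraries, with Cd79b, a signalling chain of the BCR, at 176 to 217 FPKM in WT and 169 to 185 FPKM in KO, and none of the 12 B cell markers was called or had an unadjusted p under 0.05.

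The targeted transcript was lower in all KO libraries. Fcmr (ENSMUSG00000042474, chr1:130865669-130880791 in GRCm38) stood at 352, 388 and 379 FPKM in the WT libraries and at 48.9, 50.1 and 48.9 FPKM in the KO libraries. The KO mean was 13.2% of the WT mean (log2 fold change -2.89, SE 0.05, limma adjusted p = 2.19e-10). The KO libraries held 1622 to 1754 recovered fragments of Fcmr and the WT libraries 11587 to 12137, so the transcript was reduced and was not at 0. An exact two-sided permutation test of the 6 values gave p = 0.1, and no smaller p can come from 3 against 3 libraries. The call held without each of the 12 libraries in turn.

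At 1 h, 62 of 11841 genes were called (0.524%), of which 10 were higher in KO (0.0845%) and 52 were lower (0.439%). The 10 higher genes rose by 0.31 to 4.53 and the 52 lower genes fell by 0.30 to 2.89 on the log2 scale. The KO and WT libraries did not overlap for any called gene, as was the case for 14.8% of all genes tested (6.25% higher and 8.59% lower in KO). By their means in FPKM, 5 of the higher and 14 of the lower genes differed at least 2-fold. The median log2 fold change of all genes tested was -0.011, and the median size of a fold change was 0.070. Of all genes tested 54.6% had a negative fold change, the share against which counts of signs in the lists are to be read. At an unadjusted p under 0.05 stood 11.3% of all genes tested, the share against which the counts at that p in the lists are to be read. For 87.0% of genes the 95% interval lay within 1.5-fold in both directions. The count depended on single libraries. It was 39 without WT 1, 31 without WT 2, 30 without KO 1 and 142 without WT 3, of which 119 were lower. It was 191 without WT 3 at both times. Of the 62 genes, 33 remained called without WT 1, 29 without WT 2, 59 without WT 3, 30 without KO 1, 40 without KO 2 and 38 without KO 3. In a fit of the 6 libraries of 1 h alone, with no 6 h libraries to add to the estimate of the spread, 21 genes were called and 16 of these were among the 62. Setting aside a minimum of 1.5-fold, 14 genes were called under every alternative that tested them, namely Fcmr, Map3k19, Ide, Nebl, Rnpep, Klhl12, Dph5, Cxcr4, Tsga13, I830077J02Rik, 1810046K07Rik, Igkv5-39, Cd36 and Ighv11-2.

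**Figure D1:**
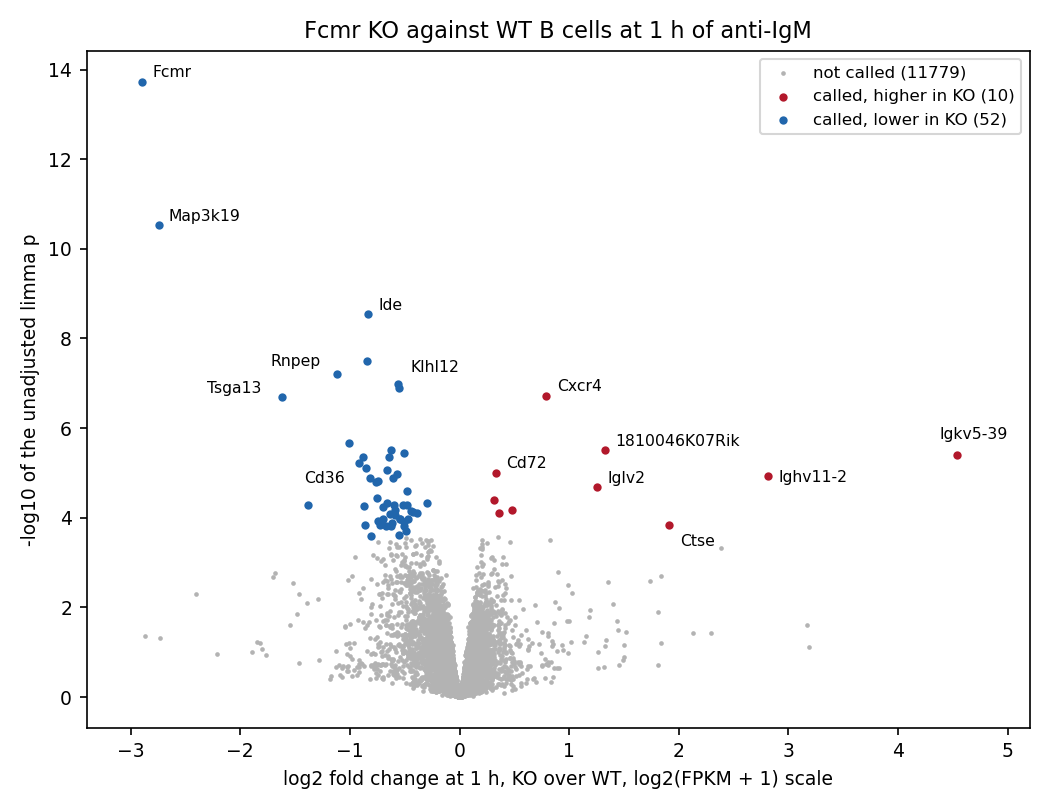
Each point is 1 of the 11841 genes tested, with the log2 fold change at 1 h (KO over WT) on the x axis and the -log10 of the unadjusted limma p on the y axis. The 10 called genes higher in KO are red, the 52 lower are blue, and Fcmr and Map3k19 lie farthest to the left, at -2.89 and -2.74.

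Among the genes that rose outside the immunoglobulin loci, the one with the highest level was Cxcr4, the receptor for the chemokine CXCL12, which retains B cells in bone marrow and guides them within lymphoid tissue. It measured 474, 511 and 519.6 FPKM in WT and 858, 916 and 832 FPKM in KO (log2 fold change 0.79, SE 0.066, limma adjusted p = 0.000265). The lowest KO library was well above the highest WT library. Cd72 encodes an inhibitory coreceptor of B cells that recruits the phosphatase SHP-1, and it measured 203, 217 and 209.7 FPKM in WT and 260.1, 262 and 272 FPKM in KO (log2 fold change 0.33, SE 0.042, limma adjusted p = 0.00583). The spread within each genotype was small beside the gap. Casp4, an inflammatory caspase that senses intracellular lipopolysaccharide, measured 94.1, 96.2 and 93.3 FPKM in WT and 126, 114 and 113 FPKM in KO (log2 fold change 0.31, SE 0.046, limma adjusted p = 0.0159). The Casp4 call was lost without each of the 1 h libraries WT 1 and WT 2 in turn (adjusted p = 0.0559 and 0.0614).

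Ctse, the endosomal aspartic protease cathepsin E, had the largest rise among genes with a proper symbol outside the immunoglobulin loci. Its levels were 51.2, 46.8 and 17.4 FPKM in WT and 141, 132 and 128 FPKM in KO (log2 fold change 1.91, SE 0.33, limma adjusted p = 0.0313). WT 3 was well under the other WT libraries, and the lowest KO library was still above the highest WT library. The Ctse call was lost without each of the 1 h libraries WT 2, KO 1, KO 2 and KO 3 and the 6 h libraries WT 1, WT 2, KO 1, KO 2 and KO 3 in turn (adjusted p = 0.0506 to 0.131). Shank1, a scaffold known from the postsynaptic density, was at a low level of 2.34, 2.03 and 2.31 FPKM in WT and 3.56, 3.54 and 3.35 FPKM in KO (log2 fold change 0.48, SE 0.075, limma adjusted p = 0.0196), and lost its call without each of the 1 h libraries WT 1, WT 2, KO 1, KO 2 and KO 3 in turn (adjusted p = 0.0544 to 0.0999). The remaining higher genes outside the immunoglobulin loci were 1810046K07Rik, at 2.05, 1.56 and 2.29 FPKM in WT and 5.25, 6.93 and 7.2 FPKM in KO (log2 fold change 1.33, SE 0.15, limma adjusted p = 0.00305), and E330020D12Rik (log2 fold change 0.36, SE 0.058, limma adjusted p = 0.0211). E330020D12Rik was not called without each of the 1 h libraries WT 1, WT 2, KO 1 and KO 3 in turn (adjusted p = 0.0748 to 0.106).

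Immunoglobulin variable segments made up 3 of the 10 higher genes. These segments are recombined in each B cell, and a segment is read only from the cells that carry it. Igkv5-39 measured 413, 330.4 and 189 FPKM in WT and 6188, 4032 and 12897 FPKM in KO (log2 fold change 4.53, SE 0.52, limma adjusted p = 0.00333), with a KO mean 24.8-fold above the WT mean. The lowest KO library was far above the highest WT library, and the KO libraries also differed widely among themselves. Ighv11-2, a heavy chain segment, measured 20.4, 17.1 and 11.4 FPKM in WT and 123, 103 and 129 FPKM in KO (log2 fold change 2.82, SE 0.36, limma adjusted p = 0.00625). Iglv2 measured 125, 152 and 146 FPKM in WT and 326, 436 and 266 FPKM in KO (log2 fold change 1.25, SE 0.17, limma adjusted p = 0.009). Igkv3-7 went the other way, from 103, 79 and 114 FPKM in WT to 37.7, 31 and 42.7 FPKM in KO (log2 fold change -1.38, SE 0.21, limma adjusted p = 0.0172), and was lost without each of the 1 h libraries WT 1, KO 1 and KO 2 in turn (adjusted p = 0.0711 to 0.0883). Of the 204 variable segments tested, these 4 were called (1.96%), and 31 had an unadjusted p under 0.05. The median fold change of the 204 was 0.085, their range was -1.76 to 4.53, and their median SE was 0.458 against 0.078 for all genes. Variable segments share reads with near-identical copies, so the split between one segment and the next is uncertain.

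**Figure D2:**
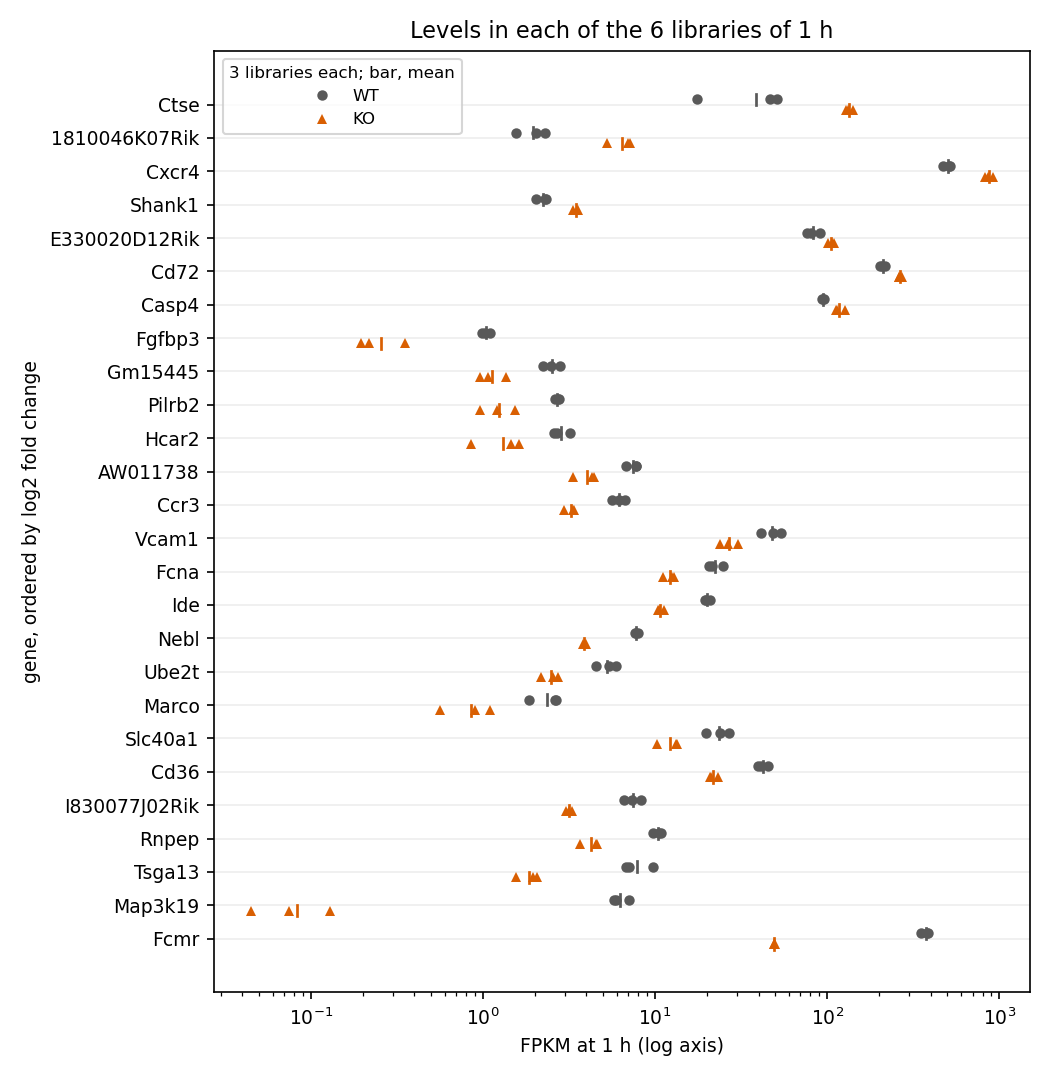
FPKM at 1 h on a log axis for 26 called genes outside the immunoglobulin loci and the Y chromosome, ordered by fold change, with WT as grey circles, KO as orange triangles and a bar at each mean of 3 libraries. For Cxcr4 the KO libraries lie to the right of all WT libraries, and for Fcmr they lie near 49 FPKM against 352 to 388 FPKM in WT.

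Of the 52 genes that fell, 50 were protein coding, and 27 had a WT mean under 10 FPKM. Map3k19, a member of the MAP kinase kinase kinase family, had the largest fall after Fcmr on the log2(FPKM + 1) scale. By the ratio of the mean FPKM its fall was the larger, 75.4-fold against 7.57-fold for Fcmr. Map3k19 measured 5.82, 7.06 and 5.95 FPKM in WT and 0.0451, 0.129 and 0.0751 FPKM in KO (log2 fold change -2.74, SE 0.10, limma adjusted p = 1.75e-07). All KO libraries were near 0, with no fewer than 5 fragments. Tsga13, a gene named for its expression in testis, measured 9.77, 7.05 and 6.75 FPKM in WT and 2.07, 1.95 and 1.56 FPKM in KO (log2 fold change -1.62, SE 0.14, limma adjusted p = 0.000265). Rnpep, the zinc-dependent aminopeptidase B, measured 10.6, 10.9 and 9.72 FPKM in WT and 4.57, 3.69 and 4.52 FPKM in KO (log2 fold change -1.12, SE 0.083, limma adjusted p = 0.000146). Like every called gene, the 3 genes did not overlap between genotypes, and they remained called without each of the 12 libraries in turn.

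Ide, the insulin-degrading enzyme, a protease of short peptides, measured 20.8, 19.7 and 19.4 FPKM in WT and 10.6, 10.5 and 11.3 FPKM in KO (log2 fold change -0.84, SE 0.046, limma adjusted p = 1.12e-05). Nebl, the actin-binding protein nebulette known from cardiac muscle, measured 7.63, 7.93 and 7.78 FPKM in WT and 3.89, 3.95 and 3.82 FPKM in KO (log2 fold change -0.85, SE 0.059, limma adjusted p = 9.44e-05). Both kept their call without each library, and the KO libraries of both were close together. Fgfbp3, a secreted binding protein of fibroblast growth factors, measured 1.1, 1.03 and 0.987 FPKM in WT and 0.218, 0.195 and 0.352 FPKM in KO (log2 fold change -0.70, SE 0.11, limma adjusted p = 0.0176). Its call was lost without each of the 1 h libraries WT 1, WT 2, KO 1 and KO 2 in turn (adjusted p = 0.0711 to 0.0966). Ube2t, the ubiquitin-conjugating enzyme of the Fanconi anaemia repair pathway, measured 5.41, 5.91 and 4.52 FPKM in WT and 2.55, 2.17 and 2.72 FPKM in KO (log2 fold change -0.85, SE 0.10, limma adjusted p = 0.00518).

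Ccr3, the eotaxin receptor of eosinophils, measured 5.64, 6.71 and 6.2 FPKM in WT and 3.39, 3.34 and 2.97 FPKM in KO (log2 fold change -0.76, SE 0.10, limma adjusted p = 0.0073), and was not called without the 1 h library WT 2 (adjusted p = 0.0512). Hcar2, the receptor for niacin and for the ketone body beta-hydroxybutyrate, measured 3.2, 2.69 and 2.59 FPKM in WT and 1.45, 1.61 and 0.855 FPKM in KO (log2 fold change -0.74, SE 0.13, limma adjusted p = 0.0275). The Hcar2 call was lost without each of the 1 h libraries WT 1, WT 2 and KO 1 and the 6 h libraries WT 1 and KO 1 in turn (adjusted p = 0.0513 to 0.114). Pilrb2, an activating immunoglobulin-like receptor, measured 2.61, 2.79 and 2.74 FPKM in WT and 0.96, 1.53 and 1.21 FPKM in KO (log2 fold change -0.74, SE 0.10, limma adjusted p = 0.00718). Fcna, the complement-activating lectin ficolin A, measured 25, 21.5 and 20.7 FPKM in WT and 12.9, 12.6 and 11.2 FPKM in KO (log2 fold change -0.82, SE 0.11, limma adjusted p = 0.00655). None of the 4 overlapped between genotypes, as was true of every called gene. The summed level of 18 red pulp macrophage markers was 350 to 400 FPKM in WT and 213 to 234 FPKM in KO, and its part in the falls of Ccr3, Hcar2, Pilrb2 and Fcna was not tested.

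The smaller falls outside these groups included receptors and adhesion molecules: Plxnd1, a semaphorin receptor, at -0.62, and the integrin alpha chain Itgad at -0.60, both called without each library in turn. Other called genes were the small GTPase Rhob at -0.54, the folate carrier Slc19a1 at -0.38, the calcium-permeable channel Trpm2 at -0.67, the organic anion transporter Abcc3 at -0.51, the lysosomal protease cathepsin D (Ctsd) at -0.61, the lysosomal phospholipase Pla2g15 at -0.43 and the complement component C6 at -0.47. The tyrosine phosphatase Ptpn14 and the lysine methyltransferase Smyd2 stood at -0.59 and -0.48. All 9 of these calls, from Rhob to Smyd2, were lost without KO 2. Without KO 1 all but that of Slc19a1 were lost, without WT 1 or KO 3 all but that of Pla2g15, and without WT 2 all but that of Ptpn14. Rhob also lost its call without WT 3, and Trpm2, Abcc3, Ctsd and Smyd2 without some 6 h libraries. The rest of the lower genes with no list were AW011738, I830077J02Rik, Serpinb6a, Rbpms, Mfhas1, Tbc1d9, Lrrc25 and 1 gene of the Y chromosome. I830077J02Rik and the Y chromosome gene kept their calls without each library, and the other 6 lost them without WT 1 or WT 2. All of these 6 but AW011738 also lost their calls without KO 1. The call of Tbc1d9 was lost without 7 of the 12 libraries in turn and that of Lrrc25 without 10. Just outside the threshold, at adjusted p values of 0.0512 to 0.0537, were Gm19585 at 0.36, Apobr at -0.49, Ccr7 at -0.36, AC121821.1 at -0.31 and Ighv5-6 at 0.83.

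Called genes were denser around Fcmr on chromosome 1 than elsewhere in the genome. Chromosome 1 held 16 called genes of 703 tested (2.28%), against 46 of 11138 on the other chromosomes (0.413%). Within 5 Mb of the start of Fcmr, and leaving out Fcmr, 10 of 62 tested genes were called (16.1%), against 51 of all other genes (0.433%). Cxcr4 and Ctse in this stretch rose, and Map3k19, Mcm6, Rassf5, Dstyk, Klhl12, Ube2t, Gm15445 and Rnpep fell. From 5 to 10 Mb on either side, 0 of 18 genes were called, from 5 to 20 Mb 1 of 42 (2.38%), and farther than 20 Mb 4 of 598 (0.669%). The count within 5 Mb was 6 without WT 2, 5 without KO 1 and 4 in the fit of the 6 libraries of 1 h alone, where 0.136% of other genes were called. It was 10 without WT 3, and 12 without that replicate at both times. The median size of the fold change within 5 Mb was 0.141, against 0.077 for chromosome 1 genes farther than 20 Mb. Which strain the KO allele was made on is not given in the sources used here, so effects of the deleted gene and of linked sequence cannot be told apart.

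Nearest to Fcmr among the called genes was Rassf5, a RAS association protein that binds RAP1 and promotes integrin adhesion, 0.311 Mb away. It measured 30.1, 31.9 and 30.9 FPKM in WT and 24.1, 25.7 and 25.3 FPKM in KO (log2 fold change -0.30, SE 0.044, limma adjusted p = 0.0172). The Rassf5 call was lost without each of the 1 h libraries WT 2, KO 1 and KO 3 in turn (adjusted p = 0.0537 to 0.0936). Ctse lies 0.773 Mb away and Dstyk, a kinase of both serine and threonine and of tyrosine residues, 1.55 Mb away. Dstyk measured 5.93, 5.56 and 6.1 FPKM in WT and 3.58, 4.001 and 4.23 FPKM in KO (log2 fold change -0.48, SE 0.067, limma adjusted p = 0.0109), and was not called without the 1 h library KO 1 (adjusted p = 0.052). Klhl12, an adaptor of the CUL3 ubiquitin ligase, lies 3.59 Mb from Fcmr and measured 20.8, 20.1 and 20.5 FPKM in WT and 13.8, 13.5 and 13.5 FPKM in KO (log2 fold change -0.56, SE 0.044, limma adjusted p = 0.000205). The KO libraries of Klhl12 stayed below the WT libraries, and its call held without each library.

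On the other side of Fcmr, Cxcr4, Mcm6 and Map3k19 lie 2.28, 2.53 and 3.05 Mb away, with 229 kb between Mcm6 and Cxcr4 and 477 kb between Map3k19 and Mcm6. Ube2t, Gm15445 and Rnpep lie 4.1, 4.29 and 4.4 Mb from Fcmr. Gm15445 (log2 fold change -0.73, SE 0.13, limma adjusted p = 0.0313) lost its call without each of the 1 h libraries WT 1, WT 2, WT 3, KO 1, KO 2 and KO 3 and the 6 h libraries WT 1, KO 1, KO 2 and KO 3 in turn (adjusted p = 0.0514 to 0.12), and as the strand used in counting is not stated, its reads cannot be told apart from those of any gene it overlaps. Called genes also lay close to each other on other chromosomes. Fgfbp3, Ide and Myof, all lower, follow each other on chromosome 19 with gaps of 349 and 561 kb. Dph5 and Vcam1 lie 176 kb apart on chromosome 3, the complement genes C1qc and C1qa 3 kb apart on chromosome 4, and Ptpn14 and Smyd2 4 kb apart on chromosome 1.

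**Figure D3:**
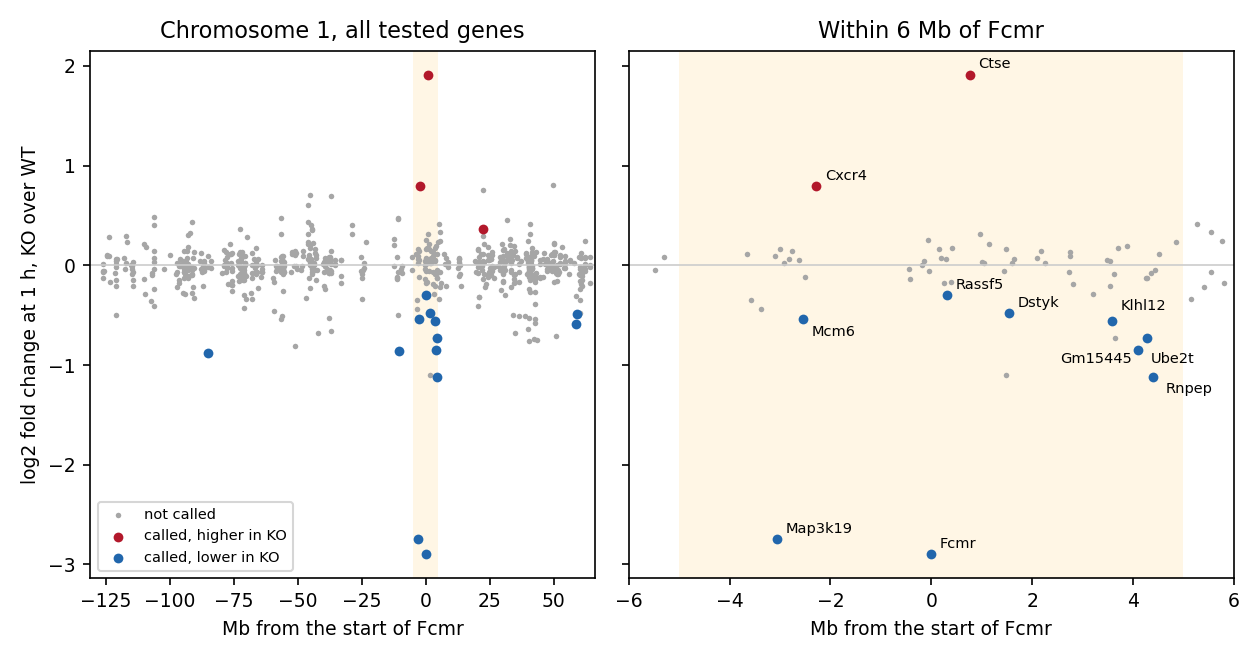
Log2 fold change at 1 h (KO over WT) of tested genes on chromosome 1 against distance in Mb from the start of Fcmr, for the whole chromosome on the left and within 6 Mb on the right, with called genes in red (higher) or blue (lower). The shaded 5 Mb on either side of Fcmr hold 10 called genes besides Fcmr, 2 higher and 8 lower. The stretch from 5 to 10 Mb holds 0, and that from 5 to 20 Mb holds 1.

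The enzymes and adaptors next to the BCR gave no call and had narrow intervals. Of 29 tested kinases, adaptors and second messenger enzymes, 0 were called by limma and 6 had an unadjusted p under 0.05. Their median fold change was -0.017 and all 29 intervals lay within 1.5-fold. Blnk, the adaptor that couples SYK to PLCG2, had a fold change of -0.13, the NF-kB adaptor Bcl10 -0.15 and the kinase Akt1 -0.13, while the adaptor Pik3ap1 stood at 0.15 and Prkcb, which relays to NF-kB, at 0.19. Of 24 genes of the RAS and MAP kinase cascade, 0 were called and 2 had an unadjusted p under 0.05, Map3k1 at 0.16 and Hras at -0.25. Their median was 0.016 and all 24 intervals lay within 1.5-fold.

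Among 29 inhibitory receptors and phosphatases, Cd72 rose and the other 28 were not called, with a median of 0.025 for the list. Ptpn11, the phosphatase SHP-2, measured 18.2 to 19.1 FPKM in WT and 21 to 22.8 FPKM in KO (log2 fold change 0.20, SE 0.039, limma adjusted p = 0.0574). Lair1, an inhibitory collagen receptor, measured 2.1 to 2.57 FPKM in WT and 1.5 to 1.59 FPKM in KO (log2 fold change -0.39, SE 0.082, limma adjusted p = 0.0744). Neither overlapped between genotypes and neither passed the threshold. The inhibitory receptors Cd300a and Fcrl5 stood at -0.37 and -0.23.

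The fold changes of immediate early transcription factors were mostly negative, without a call. Of 32 tested factors of the AP-1, EGR, NR4A and KLF groups, 26 had a negative fold change, against 54.6% of all genes, and the median was -0.161. By limma 0 were called, and 13 had an unadjusted p under 0.05, of which 12 were lower, against 7.57% of all genes that were lower at that p. For 10 of them all KO libraries lay under all WT libraries, as for 8.59% of all genes. The median was -0.088 without WT 3. Without WT 1, Jun and Btg2 were called, with adjusted p values of 0.0167 and 0.0433.

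Jun, a subunit of AP-1, measured 32.2, 42.1 and 39.1 FPKM in WT and 25.5, 29.2 and 28.9 FPKM in KO (log2 fold change -0.42, SE 0.088, limma adjusted p = 0.0744). Egr1, a zinc finger factor induced through ERK, measured 179.6, 219 and 206 FPKM in WT and 159, 156 and 151 FPKM in KO (log2 fold change -0.37, SE 0.09, limma adjusted p = 0.129). Atf3, a stress-induced factor of the ATF family, measured 83, 88.3 and 119 FPKM in WT and 64.7, 77.1 and 64.2 FPKM in KO (log2 fold change -0.48, SE 0.12, limma adjusted p = 0.14). In these 3 genes each KO library was under each WT library, and no adjusted p passed the threshold. Klf2, a quiescence factor of lymphocytes, had a fold change of -0.28, Ier3 of -0.27 and the antiproliferative gene Btg2 of -0.29. The summed level of the list was 5483, 6050 and 6392 FPKM in WT and 5417, 5557 and 5004 FPKM in KO, with KO 2 above WT 1.

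Of 12 tested feedback inhibitors of ERK, 0 were called and 5 had an unadjusted p under 0.05. These were the MAP kinase phosphatases Dusp5 at -0.25, Dusp8 at -0.31, Dusp2 at -0.18 and Dusp1 at -0.28, all on the lower side, and Dusp10 at 0.19. Dusp5, which acts on ERK in the nucleus, measured 40.2, 42.2 and 47.4 FPKM in WT and 34.1, 38.7 and 36.1 FPKM in KO (log2 fold change -0.25, SE 0.071, limma adjusted p = 0.187). Dusp2 measured 334, 362 and 377 FPKM in WT and 332, 319 and 295 FPKM in KO (log2 fold change -0.18, SE 0.069, limma adjusted p = 0.334). The genotypes did not overlap in either gene, and the median of the list was -0.043.

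Promoters of immediate early genes are known for CRE elements, bound by CREB and ATF proteins, and CArG boxes, bound by SRF. The CRE-type letters TGACGNNA and a degenerate form of the CArG box were searched on both strands in the 300 bases from 250 before to 50 after the gene start, from RefSeq for GRCm38.p6. Of 47 genes of the immediate early and ERK feedback lists, 38 were matched. The first motif was in 15 of these 38 and in 2171 of all 32851 promoters (6.61%). The degenerate form matched in 4 of the 38, Atf3, Dusp5, Egr2 and Srf, and in 507 of all (1.54%). This form allows any base at some inner positions, where a CArG box has only A or T, and fixes the others. Its matches can therefore include stretches that are not CArG boxes and leave out some that are. The promoters of Atf3 and Dusp5, which match both patterns, are printed 5′ to 3′ on the strand of the gene, with matches in capitals. So is that of Btg2, which holds the CRE-type motif and lies 3.21 Mb from Fcmr. The Atf3 match to the degenerate form has a G among its inner letters and is not a CArG box. In the Dusp5 matches to that form the inner letters are all A or T. A match describes letters and is not a measured binding site.
Atf3, chr1:191183284-191183583, minus strand: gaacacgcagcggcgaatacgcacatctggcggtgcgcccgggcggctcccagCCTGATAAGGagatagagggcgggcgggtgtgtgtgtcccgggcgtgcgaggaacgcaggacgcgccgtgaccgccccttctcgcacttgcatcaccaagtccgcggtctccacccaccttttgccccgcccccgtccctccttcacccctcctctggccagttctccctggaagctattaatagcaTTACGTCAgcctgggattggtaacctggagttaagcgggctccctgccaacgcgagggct
Dusp5, chr19:53528895-53529194, plus strand: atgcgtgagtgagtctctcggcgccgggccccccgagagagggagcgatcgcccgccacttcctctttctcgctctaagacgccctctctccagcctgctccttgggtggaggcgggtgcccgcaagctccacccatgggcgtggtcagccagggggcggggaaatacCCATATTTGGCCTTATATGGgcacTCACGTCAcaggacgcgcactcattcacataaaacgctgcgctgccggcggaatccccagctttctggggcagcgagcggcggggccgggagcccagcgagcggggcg
Btg2, chr1:134079106-134079405, minus strand: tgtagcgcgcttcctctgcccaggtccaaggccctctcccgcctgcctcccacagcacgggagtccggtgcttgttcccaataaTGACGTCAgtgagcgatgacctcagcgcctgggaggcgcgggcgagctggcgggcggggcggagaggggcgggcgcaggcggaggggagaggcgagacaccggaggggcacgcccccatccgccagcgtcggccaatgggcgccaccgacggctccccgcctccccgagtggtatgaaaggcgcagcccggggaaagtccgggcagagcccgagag

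In the calcium and NFAT list, Ccl3 fell and the other 20 tested genes were not called, with a median of 0.014. Ccl3, a chemokine that activated B cells secrete to attract T cells, measured 102, 96.3 and 90.5 FPKM in WT and 62.5, 68.5 and 55 FPKM in KO (log2 fold change -0.63, SE 0.10, limma adjusted p = 0.0221). The Ccl3 call was lost without each of the 1 h libraries WT 1, WT 2, KO 1 and KO 3 in turn (adjusted p = 0.0808 to 0.099). Ccl4, a related chemokine, measured 104, 109.9 and 101 FPKM in WT and 69.2, 76.4 and 71.6 FPKM in KO (log2 fold change -0.53, SE 0.12, limma adjusted p = 0.0976). For both chemokines the KO libraries were below the WT libraries.

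Of 28 NF-kB subunits, inhibitors and targets, 0 were called by limma and 5 had an unadjusted p under 0.05, with a median of -0.023. Ccr7, the receptor that draws B cells toward the T cell zone after activation, measured 299, 285 and 332 FPKM in WT and 239.8, 249.6 and 220.1 FPKM in KO (log2 fold change -0.36, SE 0.069, limma adjusted p = 0.0537). Its libraries did not overlap. The inhibitor Nfkbiz stood at -0.17 and the survival gene Bcl2a1a at -0.49, while Nfkb1, the p105 precursor, stood at 0.14 and the A20-binding Tnip2 at 0.15. Bcl2a1a has near-identical copies, so its level is uncertain. Among 23 activation and costimulatory molecules 0 were called and 5 had an unadjusted p under 0.05, 3 lower and 2 higher. Among the lower were Cd24a at -0.17 and Sema7a at -0.24. Of 22 cytokine receptors, STATs and SOCS genes 0 were called and 5 had an unadjusted p under 0.05, among them Stat3 at 0.23 and Cish at -0.26. Of 19 chemokine, homing and sphingosine receptors, Cxcr4 rose, S1pr3 fell, and 7 had an unadjusted p under 0.05, 4 lower and 3 higher. Among the higher were Ccr9 at 0.42 and Ccr6 at 0.26.

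Among genes of cell cycle entry, 33 of 34 replication licensing and G1/S genes had a negative fold change, against 54.6% of all genes. The median was -0.165, and 9 had an unadjusted limma p under 0.05. Of these 8 were lower, against 7.57% of all genes. The 2 called genes were Ube2t and Mcm6, both within 5 Mb of Fcmr, and 0.439% of all genes were called lower. Mcm6, a subunit of the replicative MCM helicase, measured 41.6, 37.9 and 31.7 FPKM in WT and 25, 22.7 and 27.4 FPKM in KO (log2 fold change -0.54, SE 0.09, limma adjusted p = 0.0254). The Mcm6 call was lost without each of the 1 h libraries WT 1, WT 2, KO 1 and KO 2 and the 6 h library KO 1 in turn (adjusted p = 0.0529 to 0.116). The list held 1 call with WT 1, WT 2, KO 1 or KO 2 left out singly, 3 without WT 3 and 0 in the fit of the 6 libraries of 1 h alone. The median of the list ranged from -0.102 without WT 1 to -0.245 without WT 3. The summed level of the list was 719, 681 and 614 FPKM in WT and 618, 555 and 614 FPKM in KO. Summed erythroid markers stood at 2233, 2122 and 592 FPKM in WT and 1483, 561 and 889.7 FPKM in KO, high in WT 1 and WT 2 and low in WT 3 and KO 2, and their part in the list's values was not tested. Against the direction of the list, Ccnd2, the cyclin D that BCR signals induce, stood at 0.35 and did not pass the test (adjusted p from limma 0.262).

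Growth and metabolism lists had no called member. MYC targets and ribosome biogenesis had 25 of 28 negative fold changes, a median of -0.071 and 3 genes with an unadjusted p under 0.05, including Myc itself at 548 to 571 FPKM in WT and 437 to 530.3 FPKM in KO (log2 fold change -0.19, SE 0.071, limma adjusted p = 0.315). Glycolysis and glucose uptake had 19 of 21 negative, a median of -0.122 and 6 with an unadjusted p under 0.05. The glucose transporter Slc2a3 measured 82.6 to 84.5 FPKM in WT and 61.8 to 74 FPKM in KO (log2 fold change -0.29, SE 0.057, limma adjusted p = 0.058), and was called without KO 2 (adjusted p 0.0276). Hexokinase Hk2 stood at -0.27. Sterol synthesis and uptake went the other way, with 21 of 25 positive, a median of 0.111 and 8 with an unadjusted p under 0.05, 7 higher and 1 lower. The lanosterol demethylase Cyp51 and the isomerase Idi1 stood at 0.28 and 0.28. The sterol median was 0.185 without WT 3, where Msmo1 was called (adjusted p 0.0311), and 0.072 without WT 1. Summed sterol gene levels were 343, 365 and 407 FPKM in WT and 443, 411 and 401 FPKM in KO, and WT 3 was above KO 3.

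All 31 interferon stimulated genes had a negative fold change, with a median of -0.213 and of -0.108 without WT 1. By limma 0 were called and 4 had an unadjusted p under 0.05, including Ifit2 at -0.60 and Isg15 at -1.04. In the unfolded protein response list 0 of 23 were called and 5 had an unadjusted p under 0.05, 3 lower and 2 higher. Among the higher was the ER membrane protein gene Herpud1 at 0.28. Of 10 heat shock genes 0 were called, and 1, Dnajb1 at -0.17, had an unadjusted p under 0.05. Of 26 apoptosis and survival genes Casp4 was the called one, and the survival kinase Pim1 stood at -0.25 and the BH3-only gene Bcl2l11 at -0.24. Of 22 quiescence genes 0 were called and 5 had an unadjusted p under 0.05. Of 19 genes of MHC class II presentation Ctse was called, and of 11 mitochondrially encoded genes 0 were called and 0 had an unadjusted p under 0.05.

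Marginal zone B cell markers, a list chosen with earlier results of these data known, held 5 genes that fell in KO. These cells line the marginal sinus of the spleen, respond early to blood-borne antigen and are marked by Cd36, Cd9, S1pr3 and high Cr2. Of 19 tested markers 18 had a negative fold change, 5 fell and 12 had an unadjusted p under 0.05. Cr2 measured 128 to 136 FPKM in WT and 110 to 126 FPKM in KO and was not called. Notch2 measured 43.6 to 46.5 FPKM in WT and 43.2 to 48.3 FPKM in KO. S1pr1, Dusp16 and Mzb1 also overlapped between genotypes. At 6 h the median fold change of the list was -0.035. The list median was -0.366, and between -0.318 and -0.430 without single libraries. The 5 called genes were Cd36, a scavenger receptor for lipids, Dph5, an enzyme that modifies elongation factor 2, Pik3r4, the regulatory subunit of the class III phosphoinositide kinase, Myof, the membrane repair protein myoferlin, and S1pr3, a receptor for sphingosine 1-phosphate. The list kept 5 calls without WT 1 or WT 2 or any KO library and had 6 without WT 3, and 2, Dph5 and Cd36, in the fit of the 6 libraries alone. In bulk samples, fewer cells of a type and less RNA per cell cannot be told apart.

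Cd36 measured 45.5, 39.9 and 41.3 FPKM in WT and 21.2, 23.4 and 20.9 FPKM in KO (log2 fold change -0.92, SE 0.11, limma adjusted p = 0.00408). Dph5 measured 31.9, 29.7 and 29.7 FPKM in WT and 20.05, 19.99 and 21.3 FPKM in KO (log2 fold change -0.55, SE 0.044, limma adjusted p = 0.000219). S1pr3 measured 38, 33.2 and 40.4 FPKM in WT and 25.3, 26.3 and 22.3 FPKM in KO (log2 fold change -0.57, SE 0.073, limma adjusted p = 0.00599). In all 3, and in Pik3r4 (log2 fold change -0.51, SE 0.058, limma adjusted p = 0.00331) and Myof (log2 fold change -0.67, SE 0.083, limma adjusted p = 0.00524), the KO libraries were under the WT libraries and the calls held without each library in turn. Cd9 measured 20.7 to 27.2 FPKM in WT and 14 to 16.6 FPKM in KO (log2 fold change -0.57, SE 0.12, limma adjusted p = 0.0762) and missed the threshold. The summed level of all marginal zone markers was 1001 to 1096 FPKM in WT and 800 to 886 FPKM in KO. Cd36 is also expressed by red pulp macrophages, whose summed markers were at 350 to 400 FPKM in WT and 213 to 234 FPKM in KO, and their part in the result was not tested.

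Other B cell subsets gave no call. Among 12 follicular markers 3 had an unadjusted p under 0.05, Ccr7, Klf2 and Tcf7 at -0.54, and the median was -0.045. Among 13 B-1 markers the median was 0.10 and 3 had an unadjusted p under 0.05, including Ccdc28b at 0.43 and Zbtb32 at 0.29 on the higher side and Cd300e at -0.42. Ighv11-2, the heavy chain segment described above, is known from B-1 cells that bind phosphatidylcholine. Transitional markers had a median of 0.003 over 8 genes with 2 at an unadjusted p under 0.05, and germinal center markers a median of -0.128 over 13 genes with 0. Plasma cell markers had 13 of 15 positive, a median of 0.121 and 3 with an unadjusted p under 0.05, among them the elongation factor Ell2 at 0.19.

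Macrophage markers, also chosen with earlier results of these data known, were the other group with several calls. All 17 tested markers of red pulp macrophages had a negative fold change and an unadjusted p under 0.05, their median was -0.646, and 7 fell. The summed level of the list was 350 to 400 FPKM in WT and 213 to 234 FPKM in KO, with these transcripts present in every library of both genotypes. The calls in the list numbered 3 without WT 1, 1 without WT 2, KO 1 or KO 3, 8 without WT 3 and 1 in the fit of the 6 libraries alone. Slc40a1, the iron exporter ferroportin, measured 19.7, 26.9 and 23.7 FPKM in WT and 13.2, 13.4 and 10.3 FPKM in KO (log2 fold change -0.88, SE 0.13, limma adjusted p = 0.0172). The Slc40a1 call was lost without each of the 1 h libraries WT 2, KO 1 and KO 3 in turn (adjusted p = 0.0562 to 0.0824). Axl, a receptor kinase for clearance of dead cells, measured 14.4, 13.6 and 13.1 FPKM in WT and 7.49, 9.43 and 8.36 FPKM in KO (log2 fold change -0.65, SE 0.075, limma adjusted p = 0.00333).

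Vcam1, the ligand of the integrin VLA-4, measured 54.2, 48.4 and 41.5 FPKM in WT and 24, 26.7 and 30.3 FPKM in KO (log2 fold change -0.81, SE 0.15, limma adjusted p = 0.0477). The Vcam1 call was lost without each of the 1 h libraries WT 1, WT 2, KO 1, KO 2 and KO 3 and the 6 h libraries WT 1, WT 2, WT 3 and KO 2 in turn (adjusted p = 0.0636 to 0.181). Marco, a scavenger receptor of marginal zone macrophages, measured 2.65, 2.62 and 1.84 FPKM in WT and 1.1, 0.564 and 0.904 FPKM in KO (log2 fold change -0.86, SE 0.15, limma adjusted p = 0.0313). The Marco call was lost without each of the 1 h libraries WT 1, WT 2, KO 1, KO 2 and KO 3 and the 6 h libraries WT 1 and KO 2 in turn (adjusted p = 0.0552 to 0.147). Of 5 tested markers of marginal zone and metallophilic macrophages, all negative with a median of -0.513, Marco was the called one and 3 had an unadjusted p under 0.05. The AXL-related kinase Mertk stood at -0.66 and the mannose receptor Mrc1 at -0.59. The complement chains C1qc and C1qa stood at -0.70 and -0.62. All 4 were called and, like every called gene, did not overlap between genotypes. These 4 calls were lost without WT 2, KO 1 or KO 3, those of Mrc1, C1qc and C1qa also without WT 1, that of C1qc also without KO 2, and that of C1qa also without some 6 h libraries. The Fc receptors Fcgr3, Fcgr4 and Fcer1g, which macrophages carry, stood at -0.76, -0.64 and -0.53 and were not called, so that Fcmr was the only called gene of 13 tested Fc and complement receptors, 5 of which had an unadjusted p under 0.05.

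Most lists of cell types other than B cells and macrophages had negative medians, and their only called gene was Clec1b. Of 15 T cell markers 14 were negative, with a median of -0.341, 0 called and 10 at an unadjusted p under 0.05, 9 lower and 1 higher. The higher one, Lck, measured 27.2 to 28.1 FPKM in WT and 35.0 to 37.8 FPKM in KO. Of 15 NK cell markers 14 were negative, with a median of -0.302, 0 called and 4 at an unadjusted p under 0.05. The NK median was -0.107 without WT 3. Monocyte markers had a median of -0.373 over 12 genes, with 0 called and 4 at an unadjusted p under 0.05. All 12 neutrophil markers were negative with a median of -1.830, 0 were called and 5 had an unadjusted p under 0.05. WT 3 was low in these markers among the WT libraries only, as its summed level lay within the range of the KO libraries. Without WT 3, which leaves the WT libraries high in these markers, Mmp9 and Csf3r were called. Without that replicate at both times, 10 neutrophil markers were called. All 15 erythroid markers were negative with a median of -0.603, 0 were called and 0 had an unadjusted p under 0.05. The erythroid median was -1.272 without WT 3, -0.336 without WT 1 and -0.392 without WT 2. Clec1b, the podoplanin receptor CLEC-2 of platelets, measured 3.35 to 3.57 FPKM in WT and 1.81 to 2.13 FPKM in KO (log2 fold change -0.60, SE 0.092, limma adjusted p = 0.0172), and was lost without each of the 1 h libraries WT 1, WT 2, KO 1 and KO 2 in turn (adjusted p = 0.0707 to 0.0966). Of 6 tested platelet markers 1, Clec1b, had an unadjusted p under 0.05, and of 3 basophil markers 0 were called and 2 had one. Dendritic cell markers had a median of -0.007 over 10 genes, with 0 called and 2 at an unadjusted p under 0.05. Of the macrophage, platelet and stromal lists, Clec4f, Gp1bb, Emcn and Ccl19 were at 0 in all 6 libraries. Cd68, Itgb3 and Pecam1 of the same lists were above 10 FPKM in all 6. Itgb3 and Pecam1 were above every other member of their lists. Itga2b of the platelet list was at 1.95 to 2.59 FPKM in WT and 1.695 to 1.999 FPKM in KO. Cdh5 of the stromal and endothelial list was at 0.188 to 0.325 FPKM in WT and 0.217 to 0.391 FPKM in KO.

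Of the 52 lower genes, 9 were markers of cells other than B cells and 5 were marginal zone markers. The 10 higher genes held 0 of either. Of the tested markers, 7 of 17 for red pulp macrophages and 5 of 19 for marginal zone B cells were called lower. Of all genes tested, 0.439% were called lower. The lists were chosen with earlier results of these data known, so these shares are a description. The part of other cells in the remaining lower genes was not tested.

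**Figure D4:**
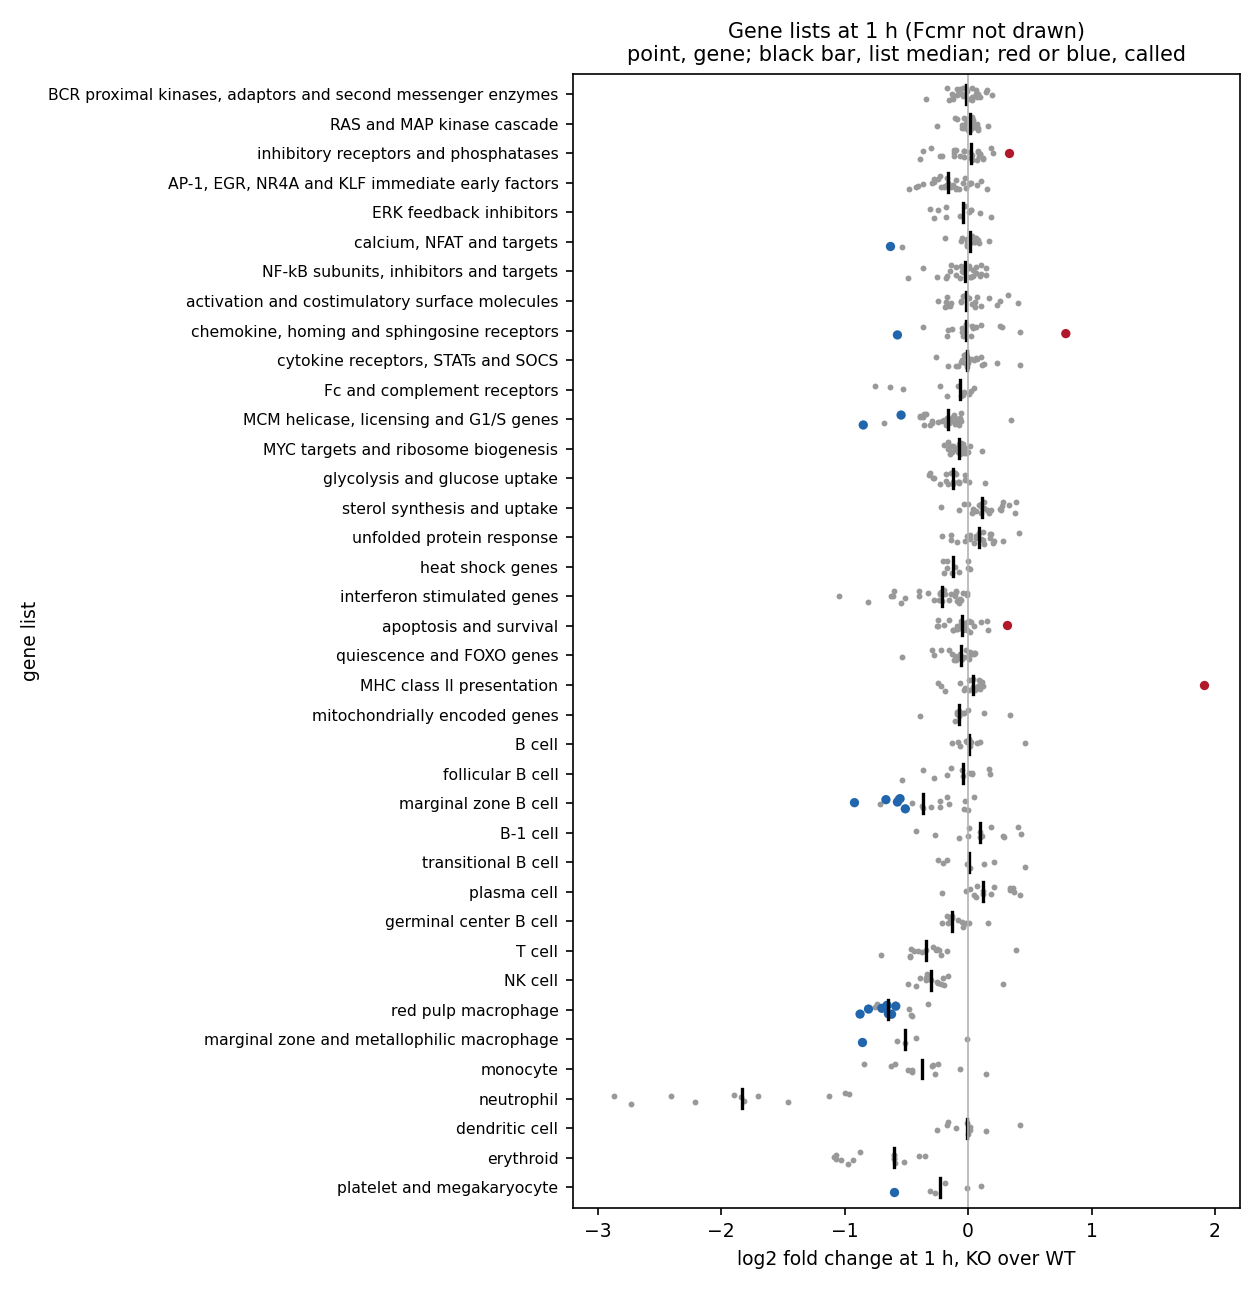
Log2 fold change at 1 h (KO over WT) of the tested members of each gene list, 1 point per gene, with a black bar at the list median and called genes in red (higher) or blue (lower). The BCR proximal and MAP kinase lists centre near 0, at -0.017 and 0.016, the marginal zone B cell and red pulp macrophage lists lie at -0.366 and -0.646, and neutrophil markers at -1.830.

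At 6 h 27 genes were called (0.228%), and 14 of the 62 genes called at 1 h were among them, 6 higher and 8 lower. The 1 h libraries and the 6 h libraries are separate, but same-numbered libraries of a genotype deviated together across the times, so the comparisons are not independent. The fold change had the same sign at 6 h for 10 of 10 higher and 48 of 52 lower genes, and was smaller at 6 h for 7 and 46 of them. These genes were chosen by their difference at 1 h, which by itself favours a smaller value at 6 h, so the last counts are a description. The WT level of 29 of the 52 lower genes fell more than 2-fold from 1 h to 6 h, and 16 had a WT mean under 1 FPKM at 6 h, a level at which log2(FPKM + 1) compresses fold changes.

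Outside the immunoglobulin loci and the Y chromosome, differences called at both times included those of Fcmr, at -3.09 at 6 h, Ide at -0.84, Rnpep at -1.17, Cxcr4 at 0.76, Ctse at 2.25, Slc40a1 at -1.09 and Fgfbp3 at -0.79. Klhl12 stood at -0.31, Mcm6 at -0.87 and E330020D12Rik at 0.38, also called. The variable segments Igkv5-39, Ighv11-2 and Iglv2 were called again at 6 h, at 4.53, 2.99 and 1.09, as was the Y chromosome gene. The difference between the times was tested as a contrast of the 2 gaps, and 3 genes were called (0.0253%), with 537 (4.54%) at an unadjusted p under 0.05. With the replicate number as a block within genotype 5 were called, and with a pseudocount of 0.1 FPKM or with limma voom on recovered fragments 0 were. Map3k19 measured 0.299, 0.221 and 0.109 FPKM in WT and 0.00778, 0 and 0.034 FPKM in KO at 6 h, a fold change of -0.25. Nebl measured 0.36, 0.354 and 0.281 FPKM in WT and 0.288, 0.296 and 0.346 FPKM in KO at 6 h, a fold change of -0.024. Dph5 measured 44.2, 45.8 and 46.5 FPKM in WT and 44.1, 45.1 and 42.2 FPKM in KO at 6 h, a fold change of -0.053. On the log2(FPKM + 1) scale the gap of these 3 genes was larger at 1 h. Map3k19 and Nebl were under 1 FPKM at 6 h, where that scale compresses differences, and the KO mean of Map3k19 was still 6.65% of the WT mean. The count of 3 became 1 without WT 2, WT 3 or KO 1 of 1 h, and 2 or 3 without each other library.

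**Figure D5:**
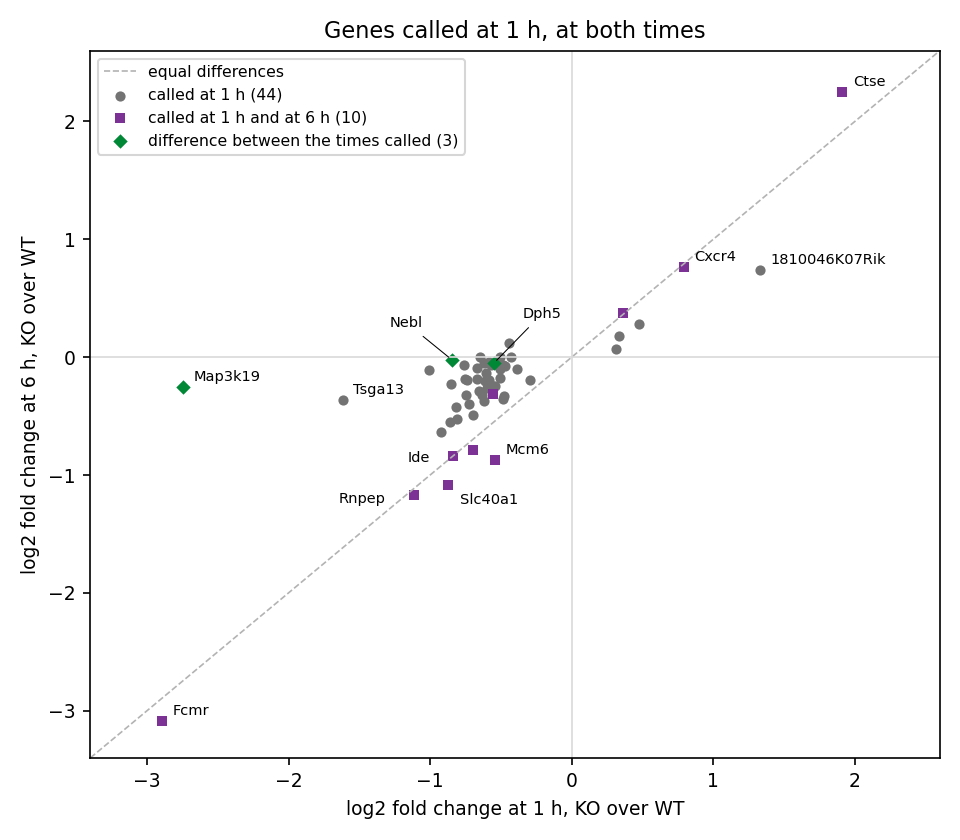
Log2 fold change (KO over WT) at 6 h against that at 1 h for 57 of the 62 genes called at 1 h, the variable segments and the Y chromosome gene not being drawn, with the dashed line marking equal differences. Fcmr, Ide, Rnpep and Cxcr4 lie near the line, and Map3k19, Nebl and Dph5 (green) lie near 0 at 6 h on the log2(FPKM + 1) scale.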

How the data were processed

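RNA of cultured splenic B cells was poly-A selected, converted to libraries with a kit that marks strand by dUTP and sequenced in 150 bp paired-end runs, per the labels' protocols. Reads were aligned with STAR to mm10 and counted with HTSeq, per the submitters' processing notes, and the versions, the gene annotation, the gene lengths and the strand setting are not given in the sources used here. The authors deposited 1 FPKM value per gene and library, 55487 genes in 12 columns, and 0 columns were left out. Genes were named from GENCODE vM21 (55141 matched).

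The test was limma 3.58.1 in R 4.3.3 with a variance trend on log2(FPKM + 1), two-sided, with 1 mean for each of 4 groups over all 12 libraries, and Benjamini-Hochberg adjustment over 11841 genes averaging 1 FPKM or more. The FPKM values gave whole fragments for 99.97% of tested genes (tolerance 0.001), with annotated lengths for 99.01% and lengths solved from the values for the rest. In this scale 3 fragments on a gene of 2 kb equal 0.0623 to 0.0779 FPKM. The fit was run on simulated data with independent noise in each library. That run cannot give the error rate for libraries that deviate together across the times. Tables and figures used Python 3.11.15, pandas 2.3.3, scipy 1.17.1 and matplotlib 3.10.9.

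Deviations of same-numbered libraries from their group means correlated at 0.338 to 0.547 between times in WT and 0.365 to 0.476 in KO, and at -0.15 to 0.248 between genotypes at 1 h, so the numbers pair times within a genotype and not genotypes. Replicates differed by more than sampling noise (chi-square per degree of freedom 10.3 to 18.0 at 1 h).

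Values are given for Fcmr, for the 15 called genes with the largest rise and the 15 with the largest fall (leaving out predicted genes, immunoglobulin segments and the Y chromosome), for up to 6 genes of smallest p in each list, and for the 5 genes just outside the threshold. Some genes that meet this rule are not reported here. The members and lists were chosen with earlier results of these data known, and the promoter motifs after looking at the list values. Alternatives were other pseudocounts, filters, scalings, weights, blocks, limma voom on recovered fragments and each library left out.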

Additional observations from a re-analysis of the deposited data

Results flagged for a closer look

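The gap between KO and WT differed between the times for 3 genes by the limma test of the difference itself. For Map3k19 the gap at 6 h minus the gap at 1 h was 2.49 on the log2 scale (SE 0.14, adjusted p = 3.3e-05). For Nebl it was 0.82 (SE 0.083, adjusted p = 0.0074), and for Dph5 it was 0.50 (SE 0.062, adjusted p = 0.0359). On that scale, of log2(FPKM + 1), KO was lower than WT at 1 h and closer to WT at 6 h in each. Map3k19 and Nebl were under 1 FPKM at 6 h, where the scale compresses differences, and the KO mean of Map3k19 was 6.65% of the WT mean there. With a pseudocount of 0.1 FPKM or with limma voom 0 such genes were called. The WT level was lower at 6 h than at 1 h for Map3k19 and Nebl and higher for Dph5.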

How the results depend on the processing

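Fcmr was called under every alternative run. The count of 62 called genes at 1 h was 115 with no filter on low values, 32 with a mean of at least 5 FPKM, 21 with the 6 libraries of 1 h alone, 105 with limma voom on recovered fragments, 40 with a fold change of at least 1.5, and 30 to 142 with 1 library left out. It was 191 without WT replicate 3 at both times, an alternative chosen after seeing the data, as was running the alternatives on the lists. With the replicate block across genotypes and times it was 53 and with the block within genotype 73; neither moved it beyond 1.5 times. The count of 3 genes whose gap differed between the times was 0 with a pseudocount of 0.1, with a mean of at least 5 FPKM and with voom, 21 with no filter, 1 with the replicate block across genotypes and times, 5 with the block within genotype, 12 with array weights, 1 without WT replicate 3 at both times and 1 to 3 with 1 library left out. Fits of fewer libraries have less information on the spread, and their counts at 1 h were both lower and higher than 62. The cause of these shifts was not tested. Each of 173 named genes gave 1 value per alternative that tested it. Of these values 3914 kept their side of the threshold, 296 were no longer past it, 52 passed it and 0 changed sign. The genes were called or had an unadjusted limma p under 0.05 in the main fit, which makes a change of sign unlikely. Of the 62 genes, 14 were called under each of 25 alternatives that tested them, the minimum fold aside, and 26 without each of the 12 libraries. At 3 libraries per group 95% intervals reached a median of 0.173 to either side on the log2 scale, and counts and floors cover counting error only.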
